A study of Homo sapiens with 8 samples.

Results

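Heat shock chaperones were examined in IMR90 fibroblasts exposed to the secretome of senescing cells. The set holds 10 genes, HSPA1A, HSPA1B, HSPA8, DNAJB1, HSPH1, BAG3, HSP90AA1, HSPB1, CRYAB and HSPD1, out of 27696 genes in the count table. They were chosen by name and not by a threshold on their values, but with earlier results of these data known. All 10 passed the filter on low counts and were tested. IMR90 is a line of normal human lung fibroblasts of embryonic origin. The recipient cells carried no oncogene cassette and were kept for 3 days in conditioned medium from IMR90 ER:RAS fibroblasts, in which 4-OHT (4-hydroxytamoxifen) switches on an inducible RAS oncogene and so oncogene-induced senescence. D0, D4, D7 and D10 are the recipient cells that received medium collected at day 0, 4, 7 or 10 of 4-OHT treatment of the donor cells. Each of these 4 groups has 2 libraries, 8 in all, from 2 independent experiments, and replicates 1 and 2 were taken as experiments 1 and 2. All groups, D0 included, received conditioned medium, and unconditioned medium was not analysed here.

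Heat shock proteins are molecular chaperones, which bind unfolded or misfolded proteins and keep them from aggregating or help them to fold. HSP70 proteins bind exposed hydrophobic stretches of a client in a cycle driven by ATP, in which J-domain proteins deliver clients and nucleotide exchange factors release them. HSP90 acts later on partly folded clients such as kinases and steroid receptors, small heat shock proteins hold clients without ATP, and the chaperonin HSP60 folds proteins inside mitochondria. The stress-inducible members are controlled by the transcription factor HSF1, which binds repeats of the unit NGAAN in alternating orientation. In fibroblasts, HSPB1 and CRYAB are also known for binding to the actin and intermediate filament cytoskeleton.

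The promoters are shown for the inducible HSP70 pair, for HSPB1, which had the second largest fitted decrease of the set, and for the constitutive HSPA8, to give the HSF1-type repeats in the genes whose counts are described. Capitals mark matches to GAANNTTC or TTCNNGAA, or in HSPA8 to the longer GAANNTTCNNGAA or TTCNNGAANNTTC. The bases are from the RefSeq promoter windows (GRCh38.p14) and are written 5′ to 3′ on the strand of the gene. They end just before the first base of the gene in GENCODE 29 for HSPA1A and HSPB1 and just before the RefSeq start for HSPA8, and for HSPA1B the stretch in register with that of HSPA1A is shown.
HSPA1A (chr6:31815293-31815463, + strand): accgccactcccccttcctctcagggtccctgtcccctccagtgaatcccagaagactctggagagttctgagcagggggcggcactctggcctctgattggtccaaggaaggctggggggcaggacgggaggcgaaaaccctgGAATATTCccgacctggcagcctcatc
HSPA1B (chr6:31827489-31827659, + strand): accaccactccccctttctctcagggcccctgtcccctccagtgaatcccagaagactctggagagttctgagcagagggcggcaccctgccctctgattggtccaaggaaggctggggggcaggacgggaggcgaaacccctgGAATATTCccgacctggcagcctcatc
HSPB1 (chr7:76302423-76302543, + strand): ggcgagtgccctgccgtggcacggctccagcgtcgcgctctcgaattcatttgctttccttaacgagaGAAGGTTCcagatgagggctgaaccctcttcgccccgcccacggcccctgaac
HSPA8 (chr11:123062137-123062386, - strand): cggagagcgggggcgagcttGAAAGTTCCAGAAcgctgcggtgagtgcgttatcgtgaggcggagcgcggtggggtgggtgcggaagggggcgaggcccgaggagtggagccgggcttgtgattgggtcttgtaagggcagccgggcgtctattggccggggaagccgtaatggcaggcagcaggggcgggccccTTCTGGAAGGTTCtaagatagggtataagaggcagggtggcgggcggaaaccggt

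The HSPA1A and HSPA1B stretches were identical at 164 of 171 bases, the repeat included. Promoter windows of 300 bases were found for 9 of the 10 chaperones, the exception being CRYAB, and some genes had several windows. Both strands were searched. Each 8-letter motif is its own reverse complement, the 13-letter motifs are reverse complements of each other, and every 13-letter match also contains 8-letter matches. A match to an 8-letter motif was present in 8 of 13 windows (61.5%), compared with 13.5% of all 35116 windows. By gene, 7 of the 9 had one, compared with 16.2% of all 27305 genes, and HSPH1 and BAG3 had none in these windows. The 13-letter motifs were present in 3 of 13 windows (those of HSPA8, HSP90AA1 and HSPD1), compared with 0.49% of all windows.

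Poly(A) RNA was sequenced, and reads per gene were counted by the authors, with 11708193 to 13395912 counts per library. Values below are CPM, counts scaled to the TMM-normalized library size, in experiments 1 and 2 in that order. Differences from D0 are log2 fold changes from edgeR's quasi-likelihood test over 13798 genes with Benjamini-Hochberg adjustment, called at an adjusted p under 0.05. The 2 experiments differed across many genes, so that a second fit took the experiment as a replicate block, and both are given where the call differs. All 11 fibroblast markers examined had at least 10 counts in every library, whereas no epithelial marker had more than 7 counts, no endothelial marker more than 31 and no leukocyte marker more than 32 in any library. The summed level of the fibroblast markers was 33168 to 46855 CPM at D0 and 10132 to 34743 CPM at D10, and its part in the results below was not tested. In bulk RNA, fewer cells of a type and less RNA per cell cannot be told apart.

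The 10 chaperones together made up between 2284 and 3879 CPM of a library, and HSPA8 alone gave 42.4% to 50.4% of that sum. Compared per kilobase of annotated exon, HSPA8 had the highest median level over the 8 libraries (307 CPM per kb, range 205 to 392), followed by HSPB1 (208, range 101 to 352) and HSP90AA1 (146, range 119 to 171). The ranges of HSPA8 and HSPB1 overlapped, and so did those of HSPB1 and HSP90AA1. Next came BAG3 (43.3, range 22.5 to 60.4), DNAJB1 (38.8, range 27.4 to 57.2) and HSPD1 (28.8, range 25 to 39.7), each overlapping with its neighbour but not with HSP90AA1. HSPH1 had a median of 17.7 CPM per kb (range 14.2 to 18.6) and overlapped with neither neighbour. HSPA1A (5.56, range 3.84 to 7.93), HSPA1B (4.84, range 4.26 to 6.83) and CRYAB (2, range 1.4 to 4.39) were lowest, and each overlapped with the next. The length used covers the exons of all transcripts of a gene, 3034 bases for CRYAB (16 transcripts) and 2483 for HSPA1A (2 transcripts). The order can depend on this length, and the counts of HSPA1A and HSPA1B are uncertain because of shared sequence. The highest library exceeded the lowest by a ratio of 1.31 for HSPH1, the steadiest of the 10 on this measure, and by 3.5 for HSPB1 and 3.13 for CRYAB, the most variable.

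**Figure D1:**
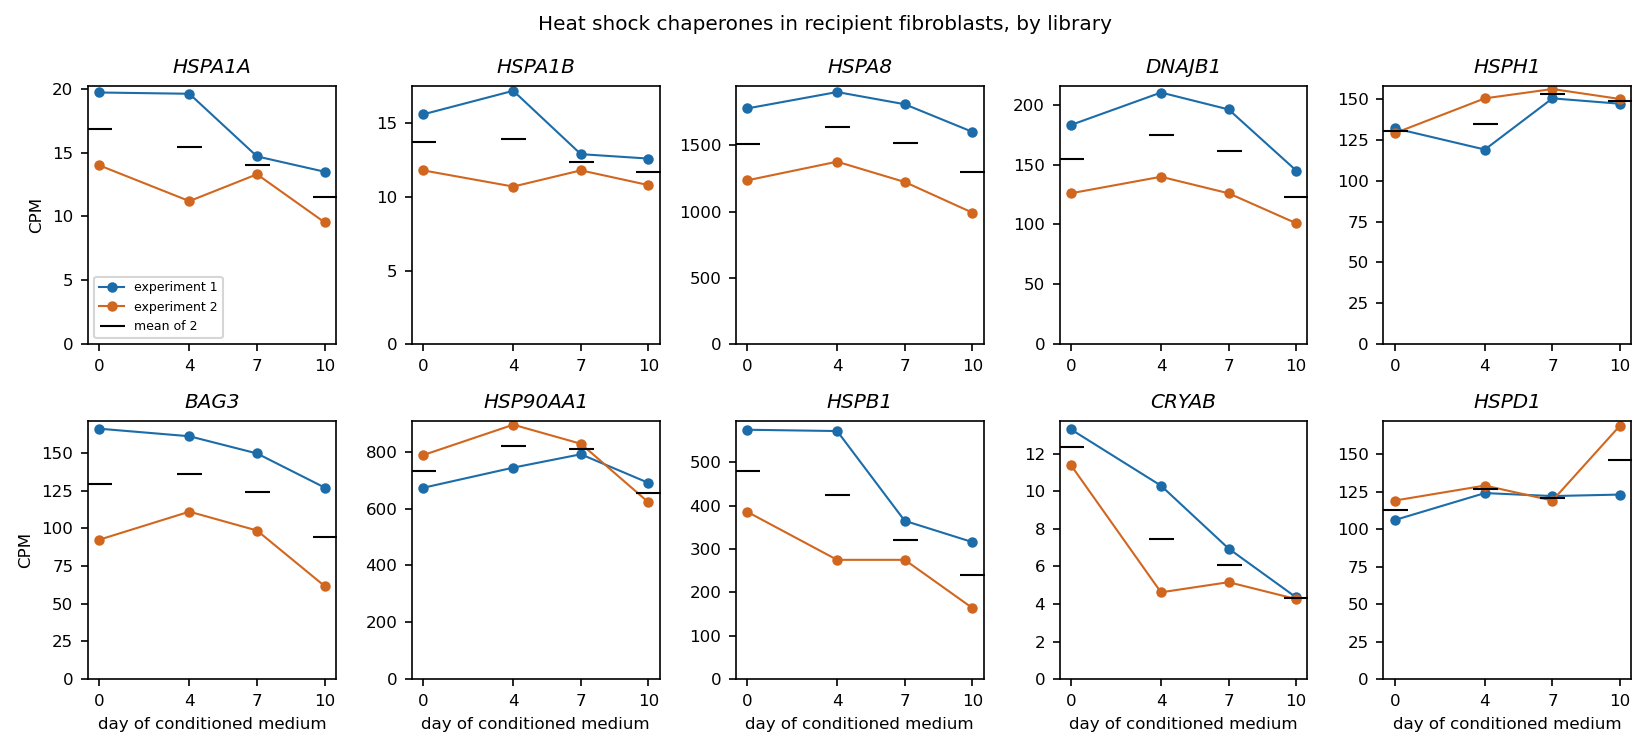
Expression of the 10 heat shock chaperones in each library. The x axis is the day of 4-OHT at which the medium was collected and the y axis is CPM, with 1 point per library, lines joining the libraries of an experiment and a bar at the mean of 2. HSPB1 and CRYAB were lower at D10 than at D0 in both experiments, and for HSPA8, DNAJB1 and BAG3 the line of experiment 2 ran below that of experiment 1 on every day.

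At D10, the small heat shock proteins HSPB1 and CRYAB showed the largest decreases among the 10, with log2 fold changes of -1.0 and -1.52. Neither was called without the block, and both were called with it, as the only chaperones of the set. Of the 10, 7 were lower at D10 than at D0 in both experiments and 2, HSPH1 and HSPD1, were higher in both, compared with 32.3% and 31.1% of all genes tested. HSP90AA1 changed in opposite directions. The edgeR test called 0 of the 10 without the block, compared with 0.29% of all genes, and 2 with it, both lower, compared with 4.99% of all genes and 2.45% for genes called lower. At an unadjusted p under 0.05 these counts were 1 and 6 of the 10, compared with 7.94% and 18.2% of all genes. DESeq2 without a block called 0. The count with the block was 0 without D0 replicate 1 or D0 replicate 2, 1 without D7 replicate 1 or D7 replicate 2 and 4 without D10 replicate 1. The share of all genes called in the blocked fits without 1 library is not given here, so that those counts cannot be set against it. The median log2 fold change of the 10 was -0.28, compared with 0.00 for all genes tested. It was -0.02 without D0 replicate 1, -0.09 without D10 replicate 2, -0.52 without D0 replicate 2 and -0.59 without D10 replicate 1.

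CRYAB (αB-crystallin, ENSG00000109846.7, GRCh38 chromosome 11 from 111908565 to 111923722, minus strand, coordinates here and below from GENCODE 29) is a small heat shock protein that is abundant in lens and muscle and chaperones desmin and other filaments. Its level was 13.3 and 11.4 CPM at D0, then 10.3 and 4.62 (D4), 6.95 and 5.16 (D7) and 4.35 and 4.26 (D10). All 6 libraries of the later days lay below both D0 libraries, and the D10 libraries were the lowest. The mean was 12.4 ± 1.34 CPM at D0 and 4.31 ± 0.0672 CPM at D10 (SD, n = 2), a log2 fold change of -1.52 (standard error 0.41, 95% interval -2.46 to -0.58). The adjusted p was 0.215 with edgeR without the block, 0.0207 with the block and 0.0505 with DESeq2. Earlier days gave -0.73 at D4 and -1.03 at D7 (adjusted p = 1 on both days with edgeR). Within an experiment, the log2 change at D10 was -1.58 and -1.39. At D4 it was -0.36 in experiment 1 and -1.28 in experiment 2. Genes on the opposite strand, mainly HSPB2, overlap 20.6% of the exon bases of CRYAB. The blocked call at D10 was lost without D0 replicate 1 (adjusted p = 0.0678 from edgeR), D0 replicate 2 (0.241), D7 replicate 1 (0.0508) or D7 replicate 2 (0.0562), with fitted values between -1.23 and -1.79 over all 8 such fits.

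HSPB1 (HSP27, ENSG00000106211.8, chromosome 7 from 76302544 to 76304295, plus strand) binds unfolding proteins as large oligomers and takes part in actin filament dynamics. Its level was 575 and 386 CPM at D0, then 572 and 275 (D4), 365 and 275 (D7) and 316 and 164 (D10). All D7 and D10 libraries were below both D0 libraries, whereas at D4 only experiment 2 was. The mean was 481 ± 134 CPM at D0 and 240.1 ± 107 CPM at D10 (SD, n = 2), and the log2 fold change was -1.0 (standard error 0.45, 95% interval -2.04 to 0.04, adjusted p = 0.656 with edgeR). With the replicate block it was -1.05 (standard error 0.20, interval -1.50 to -0.60, adjusted p = 0.0198 with edgeR), and within experiments 1 and 2 it was -0.86 and -1.23. At D7 the log2 fold change was -0.59 (adjusted p = 1 with edgeR). The call with the block was lost without D0 replicate 1 (adjusted p = 0.0858 from edgeR) or D0 replicate 2 (0.289), and the fitted values without 1 library lay between -0.92 and -1.16.

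**Figure D2:**
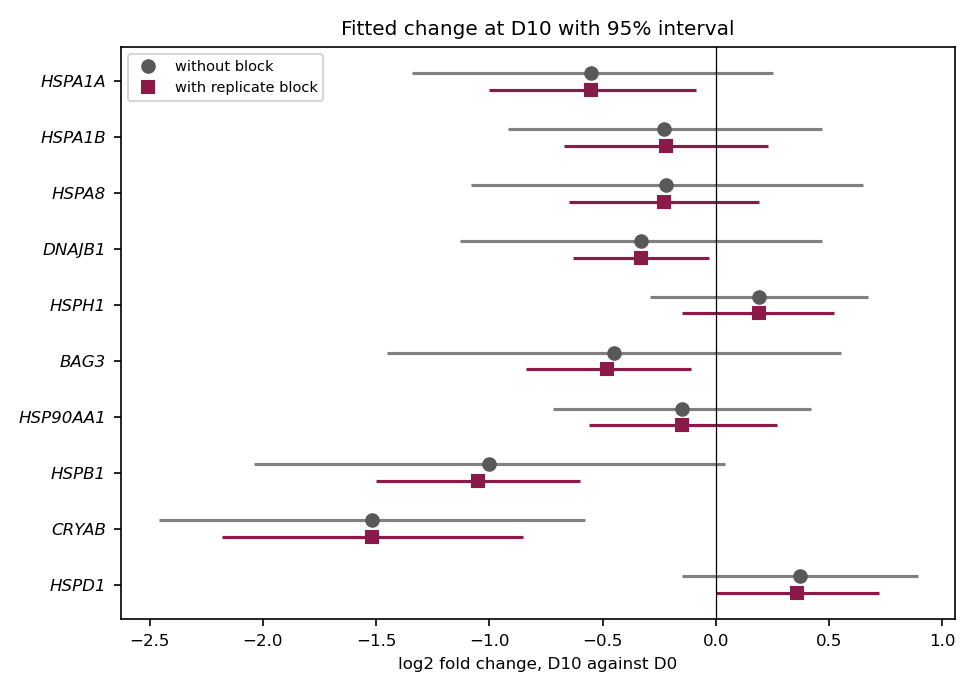
Log2 fold change at D10 against D0 for each chaperone (x axis), with 95% intervals from edgeR without the block (circles) and with the replicate block (squares). The intervals of CRYAB lie below 0 in both fits. That of HSPB1 does so with the block (-1.50 to -0.60) and reaches 0.04 without it. With the block, the intervals of HSPA1A, DNAJB1 (-0.63 to -0.03) and BAG3 (-0.84 to -0.11) also lie below 0. That of HSPD1 runs from 0.00 to 0.72 with the block. HSPA1A, DNAJB1, BAG3 and HSPD1 were not called in either fit.

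The inducible and constitutive HSP70 proteins showed smaller values. HSPA1A (ENSG00000204389.9, chromosome 6 from 31815464 to 31817946, plus strand) and HSPA1B (ENSG00000204388.6, chromosome 6 from 31827735 to 31830255, plus strand) encode the major stress-inducible HSP70 and each consist of a single exon. Their levels and the split between them are uncertain, since 71.3% of the 50-base words of HSPA1A and 73.5% of those of HSPA1B also occur in another gene, nearly all in each other, and how such reads were counted is not given in the sources used here. HSPA1A had 19.7 and 14 CPM at D0, then 19.6 and 11.2 (D4), 14.7 and 13.3 (D7) and 13.5 and 9.54 (D10). Both D10 libraries lay below both D0 libraries, by a small margin. The log2 fold change at D10 was -0.55 (standard error 0.34, interval -1.34 to 0.25), with -0.54 and -0.55 in the 2 experiments and an adjusted p of 0.911 with edgeR.

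HSPA1B had 15.6 and 11.8 CPM at D0, then 17.2 and 10.7 (D4), 12.9 and 11.8 (D7) and 12.6 and 10.8 (D10). The D10 and D0 libraries overlapped. Its log2 fold change at D10 was -0.23 (standard error 0.30, interval -0.92 to 0.47, adjusted p = 0.998 with edgeR). With the counts of HSPA1A and HSPA1B summed it was -0.39 (standard error 0.30, adjusted p = 0.998). The ratio of HSPA1A to HSPA1B lay between 0.883 and 1.26 in the 8 libraries. On the same strand, 36.5% of the exon bases of HSPA1B are overlapped by AL671762.1, which has no row in the table.

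HSPA8 (HSC70, ENSG00000109971.13, chromosome 11 from 123057489 to 123063230, minus strand) is the constitutive HSP70, which also uncoats clathrin vesicles and delivers clients to chaperone-mediated autophagy. It had 1777 and 1235 CPM at D0, then 1901 and 1376 (D4), 1809 and 1223 (D7) and 1601 and 992 (D10). In both experiments D4 was the highest and D10 the lowest day, but the D0 and D10 libraries overlapped, with every library of experiment 2 below those of experiment 1. The log2 fold change at D10 was -0.22 (standard error 0.38, interval -1.08 to 0.65, adjusted p = 0.998 with edgeR). Without D10 replicate 2 it was 0.09 and without D0 replicate 1 it was 0.07, so that its sign rests on these libraries.

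The genes of the set that feed clients to HSP70 or release them, DNAJB1, BAG3 and HSPH1, were called at D10 in neither fit. Of all genes, 0.29% were called at D10 without the block and 4.99% with it. DNAJB1 (HSP40, ENSG00000132002.7, chromosome 19 from 14514770 to 14529770, minus strand), a J-domain protein that stimulates the ATPase of HSP70, had 183 and 126 CPM at D0, then 210.1 and 139.8 (D4), 196 and 126 (D7) and 145 and 101 (D10). As for HSPA8, D4 was highest and D10 lowest in both experiments, with overlap between D0 and D10. The change at D10 was almost equal in the 2 experiments (-0.34 and -0.32 on the log2 scale). The fitted log2 fold change was -0.33 (standard error 0.35, interval -1.13 to 0.47, adjusted p = 0.998 with edgeR). It was -0.04 without D0 replicate 1, -0.09 without D10 replicate 2, -0.58 without D0 replicate 2 and -0.60 without D10 replicate 1. With the block and all libraries it was -0.33 (standard error 0.13, interval -0.63 to -0.03, adjusted p = 0.231 with edgeR).

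BAG3 (ENSG00000151929.9, chromosome 10 from 119651370 to 119677819, plus strand) is a nucleotide exchange factor that links HSP70 to small heat shock proteins and to selective autophagy. It had 166 and 92.4 CPM at D0, then 161 and 111 (D4), 149.6 and 98.5 (D7) and 127 and 61.7 (D10). D10 was the lowest day in both experiments, and D0 and D10 overlapped. The log2 fold change at D10 was -0.45 (standard error 0.43, interval -1.45 to 0.55, adjusted p = 0.998 with edgeR). Without D0 replicate 1 it was 0.03, the only fit of BAG3 at D10 without 1 library that gave a positive value. With the block and all libraries it was -0.48 (standard error 0.16, interval -0.84 to -0.11, adjusted p = 0.157 with edgeR).

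HSPH1 (HSP105, ENSG00000120694.19, chromosome 13 from 31134974 to 31162388, minus strand), an HSP110 protein that acts as an exchange factor for HSP70, had 132 and 129 CPM at D0, then 119 and 150.3 (D4), 150.3 and 156 (D7) and 147 and 149.9 (D10). All D7 and D10 libraries lay above both D0 libraries. The log2 fold change was 0.23 at D7 and 0.19 at D10 (standard error 0.21 on both days, interval at D10 -0.29 to 0.67), with adjusted p of 1 and 0.998 from edgeR.

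HSP90AA1 (ENSG00000080824.18, chromosome 14 from 102080738 to 102139699, minus strand), the stress-inducible cytosolic HSP90, had 673 and 788 CPM at D0, then 744 and 895 (D4), 791 and 828 (D7) and 690.3 and 622 (D10). Both D7 libraries were above both D0 libraries, and at D10 experiment 1 was slightly above its own D0 and experiment 2 was below. The log2 fold change at D10 was 0.04 in experiment 1 and -0.34 in experiment 2, and -0.15 in the fit (standard error 0.25, interval -0.72 to 0.42, adjusted p = 0.998 with edgeR). Words of 50 bases shared with other genes, chiefly the pseudogene HSP90AA2P, made up 11.3% of the gene.

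HSPD1 (HSP60, ENSG00000144381.16, chromosome 2 from 197486581 to 197516737, minus strand), the mitochondrial chaperonin, was the chaperone of the set with the highest fitted value at D10. It had 106 and 119 CPM at D0, then 124 and 129 (D4), 122 and 119 (D7) and 123 and 169 (D10). Both D4 and both D10 libraries were above both D0 libraries, and the D10 library of experiment 2 was the highest of all. The log2 fold change at D10 was 0.37 (standard error 0.23, interval -0.15 to 0.89, adjusted p = 0.892 with edgeR), with 0.21 in experiment 1 and 0.50 in experiment 2. With the block the fitted value was 0.36 (standard error 0.16, interval 0.00 to 0.72, adjusted p = 0.268 with edgeR). Its exons share 13.2% of their 50-base words with other genes, and 6.62% of the exon bases are overlapped by HSPE1 on the opposite strand.

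At D4 and D7, edgeR called 0 of the 10 chaperones with and without the block. Without the block 0% of all genes were called on these days, and with it 0.275% at D4 and 1.25% at D7. At an unadjusted p under 0.05, 0 of the 10 passed at D4 and 1 at D7 without the block, compared with 2.96% and 4.34% of all genes, and 1 and 2 with it, compared with 8.15% and 10.6%. DESeq2 called 0 on either day. With the block, CRYAB was called at D7 without D10 replicate 1 (adjusted p = 0.0164 from edgeR) or D10 replicate 2 (0.0184). On D4, 4 of the 10 were higher and 3 lower in both experiments, compared with 29.8% and 28.9% of all genes, and at D7 3 were higher and 4 lower, compared with 31.3% and 31%. The groups did not overlap for 1 higher gene (HSPD1) and 1 lower gene (CRYAB) at D4, where 9.73% and 12.6% of all genes did not. At D7 these were 2 higher genes (HSPH1 and HSP90AA1) and 2 lower genes (HSPB1 and CRYAB), compared with 13.7% and 15.2%. At D10 they were 2 higher genes (HSPH1 and HSPD1) and 3 lower genes (HSPA1A, HSPB1 and CRYAB), compared with 15% and 16%. The median log2 fold change of the 10 was 0.06 at D4 and -0.02 at D7, compared with 0.01 and -0.00 for all genes. Without 1 library it ranged from -0.18 (D4 replicate 1) to 0.24 (D4 replicate 2) at D4 and from -0.29 (D7 replicate 1) to 0.12 (D7 replicate 2) at D7, so that its sign rests on single libraries. The 3 days share the D0 libraries, and their values are therefore not independent of each other.

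**Figure D3:**
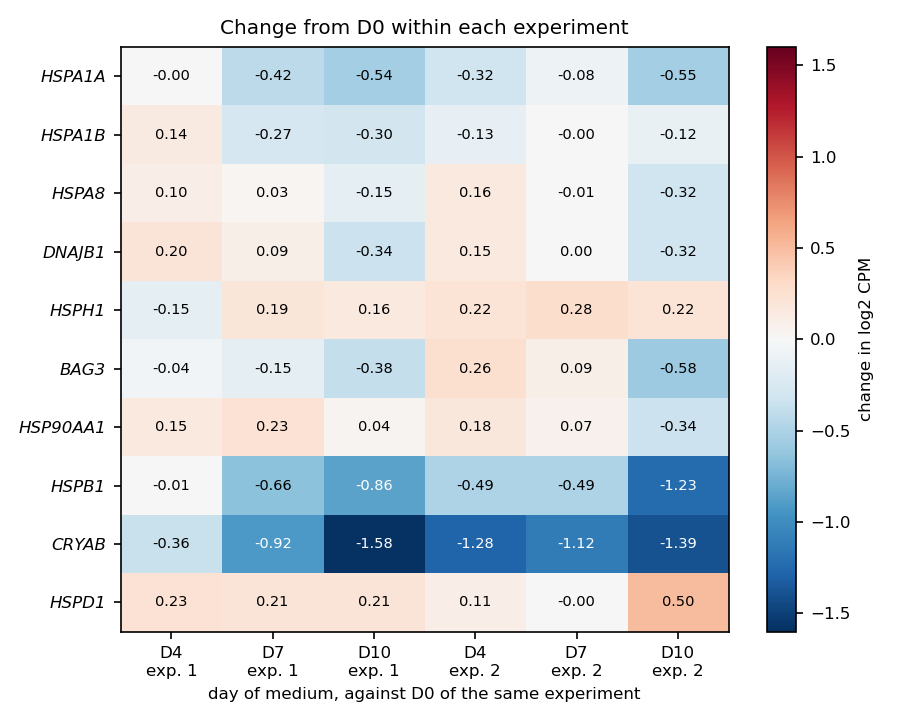
Change in log2 CPM of each chaperone (rows) from D0 of the same experiment, for D4, D7 and D10 (columns), with the value printed in each cell and colour from blue (lower) to red (higher). CRYAB was below 0 in all 6 columns, from -0.36 to -1.58, and 7 of the 10 chaperones were below 0 at D10 in both experiments.

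Several chaperones differed between the 2 experiments. In edgeR's fit with group as a term, 5 of the 10 were lower in experiment 2 (HSPA1A, HSPA8, DNAJB1, HSPB1 and BAG3) and 0 were higher, whereas 34.8% of all genes were called, 16.2% lower and 18.6% higher. The median over the 10 was -0.48, compared with 0.01 for all genes. BAG3 and HSPB1 had the largest difference, -0.75 each on the log2 scale (standard error 0.11 and 0.14, adjusted p = 0.00295 and 0.00581 with edgeR). DNAJB1 had -0.57 (standard error 0.09, adjusted p = 0.00373), HSPA8 -0.56 (standard error 0.13, adjusted p = 0.0129) and HSPA1A -0.49 (standard error 0.14, adjusted p = 0.0285), all with edgeR. HSPA1B had -0.36 and CRYAB -0.47, with adjusted p of 0.0738 and 0.109. HSPH1, HSP90AA1 and HSPD1 had 0.09, 0.10 and 0.16, with 95% intervals from -0.14 to 0.33, -0.19 to 0.40 and -0.09 to 0.42.

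On all 4 days, 7 of the 10 were lower in experiment 2, and for 4 of them (HSPA1B, HSPA8, DNAJB1 and BAG3) every library of experiment 2 was below every library of experiment 1, compared with 15.7% of all genes. Thus, within the set, HSPA1A, HSPA1B, HSPA8, DNAJB1, BAG3, HSPB1 and CRYAB had lower levels in experiment 2 on every day. HSP90AA1, HSPH1 and HSPD1 did not. The calls of HSPA8 and HSPA1A were lost without D0 replicate 1 (adjusted p = 0.0761 and 0.112 from edgeR) or D0 replicate 2 (0.0835 and 0.108), and that of HSPA1A also without D4 replicate 1 (0.119) or D4 replicate 2 (0.105). CRYAB passed without D10 replicate 1 (adjusted p = 0.0314 from edgeR) or D10 replicate 2 (0.032), and HSPA1B without D10 replicate 2 (0.0486). The number called was 3 without either D0 library. What differed between the experiments besides the repeat itself is not stated in the labels.

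The wider chaperone network was examined with further lists. Of 80 genes in 8 further lists, 77 were tested. The lists held other HSP70 and HSP40 proteins, HSP90 and its co-chaperones, other BAG and exchange factors, and other small heat shock proteins. They also held mitochondrial chaperones with proteases, the TRiC chaperonin with prefoldin, chaperones of the endoplasmic reticulum, and heat shock factors with HSBP1 and HSF2BP. Without the block edgeR called 0 of the 77 on any day. With the block it called 0 at D4, 0 at D7 and 3 at D10 (1 higher and 2 lower), compared with 0.275%, 1.25% and 4.99% of all genes. The unadjusted p was under 0.05 for 0, 0 and 3 of the 77 on these days without the block, compared with 2.96%, 4.34% and 7.94% of all genes. With the block it was so for 3, 3 and 12, compared with 8.15%, 10.6% and 18.2%. The median log2 fold change of the 77 at D10 was 0.05.

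The gene called higher was HSPA4L, an HSP110 protein, with 3.52 and 7.21 CPM at D0, then 4.73 and 7.83 (D4), 6.65 and 7.14 (D7) and 7.92 and 23.1 (D10). Both D10 libraries were above both D0 libraries, and that of experiment 2 stood far above the rest. Its log2 fold change with the block was 1.47 (adjusted p = 0.0368 with edgeR, and 0.464 without the block). The call was lost without D0 replicate 1 (0.191), D0 replicate 2 (0.269), D4 replicate 1 (0.0656), D4 replicate 2 (0.0681) or D10 replicate 2 (0.143), and without the last the value was 0.91.

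HSPB8, a small heat shock protein that works with BAG3 in selective autophagy, had 38.6 and 30.2 CPM at D0, then 40 and 22.4 (D4), 34.7 and 17.5 (D7) and 27 and 14.1 (D10). Both D10 libraries were below both D0 libraries. With the block its log2 fold change was -0.81 (adjusted p = 0.0433 with edgeR, and 0.887 without the block). The blocked call held without D0 replicate 1 or D10 replicate 1 and was lost without each of the other 6 libraries (adjusted p between 0.0656 and 0.559).

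SERPINH1 (HSP47), the collagen chaperone of the endoplasmic reticulum, had 1035 and 621 CPM at D0, then 719 and 453 (D4), 559 and 399 (D7) and 617 and 358 (D10). Within each experiment all later days were below D0, and the D10 libraries were both below both D0 libraries. With the block its log2 fold change at D10 was -0.77 (adjusted p = 0.0358 with edgeR, and 0.807 without the block). This call held without either D10 library and was lost without each of the other 6 (adjusted p between 0.0601 and 0.355).

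In the other lists 0 genes were called in either fit, compared with 0.29% of all genes at D10 without the block and 4.99% with it. For lists of 5 to 14 genes, a count of 0 lies near these shares. The list of 8 mitochondrial chaperones also holds the proteases LONP1 and CLPP. All 8 genes had a positive fitted value at D10 (median 0.28), compared with 6960 of the 13798 genes tested. In experiment 1, however, DNAJA3 (59.4 CPM at D0 and 58 at D10), LONP1 (92.6 and 84.6) and CLPP (56.1 and 53.8) were lower at D10. The remaining genes of this list were higher in both experiments. The largest value was that of HSPE1, the co-chaperonin of HSPD1, with 0.49 (adjusted p = 0.779 with edgeR). The 14 TRiC and prefoldin genes, which fold actin and tubulin, had a median of 0.03, and the largest value was that of PFDN2 with 0.34. The 12 genes of HSP90 and its co-chaperones had a median of -0.10, with FKBP5 at 0.66. For the 6 other BAG and exchange factors the median was -0.06, with BAG4 at -0.38. HSF1, the main activator of these genes under stress, and HSF2 had log2 fold changes of 0.08 and 0.07 at D10 (adjusted p = 0.998 with edgeR for both). The 5 genes of this list include HSBP1 and HSF2BP, which are not heat shock factors themselves. The largest value among the 5 was 0.62 for HSF4, with 0.838 and 4.15 CPM at D0 and 1.43 and 6.31 CPM at D10.

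**Figure D4:**
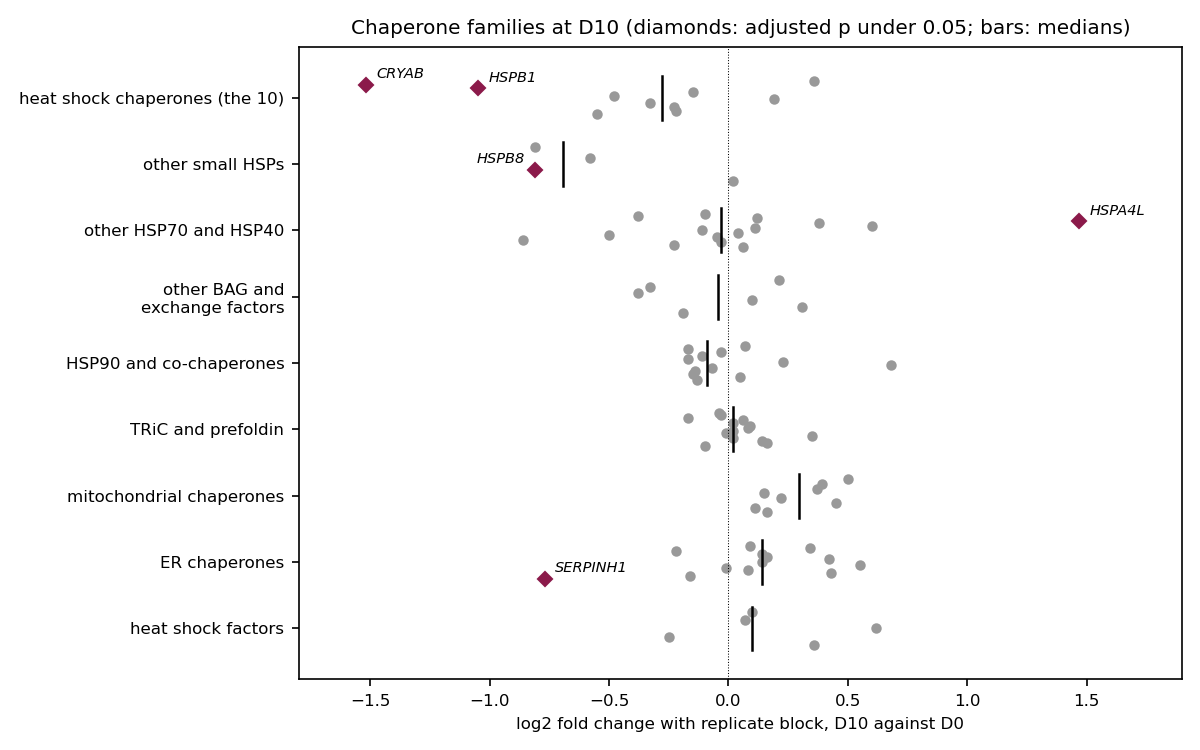
Log2 fold change at D10 against D0 from edgeR with the replicate block (x axis) for the 10 heat shock chaperones and the 77 tested genes of 8 further lists (rows). Each point is a gene, diamonds mark an adjusted p under 0.05 and vertical bars mark list medians, and CRYAB, HSPB1, HSPB8, SERPINH1 and HSPA4L are the genes past the threshold.

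Genes outside the set whose changes were most like the mean change of the 10 chaperones included HLA-DMA, ARHGDIA, NAGK and PINK1, with Pearson's r between 0.988 and 0.996. These values are a description over 6 changes (3 days in each of 2 experiments), which share the D0 library of their experiment. They are among the highest of all genes tested and were picked for being so.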

How the data were processed

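Libraries were made from poly(A) RNA with a stranded kit, 2 in each of 4 groups. The values deposited by the authors are read counts per gene, not normalized. The same table holds 8 columns of RPM, which equal the counts scaled to the column total and were not used. The submitters' processing notes name STAR 2.5, DESeq2 and GRCh38 (hg38), and the counting tool, its strand setting and its treatment of reads that map to several places are not given in the sources used here. One header, spelled with the letter O in place of the digit, was taken as D0 replicate 1. Positions are from GENCODE 29, which holds 99.6% of the identifiers, and promoter windows are from RefSeq.

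Genes were filtered with filterByExpr (13798 of 27696 tested), scaled with TMM and tested with edgeR 4.0.16 (R 4.3.3) in one fit of all 8 libraries by group, with Benjamini-Hochberg adjustment over all genes tested. CPM uses TMM library sizes, and log2 CPM a prior count of 2. Libraries were paired by replicate number. The labels number the libraries 1 and 2 in each group, and the methods state 2 independent experiments. That equal numbers mark the same experiment was inferred from the data, in which for every one of the 6 pairs of groups the libraries of equal number deviated together from their group means (r over genes from 0.418 to 0.722). The common dispersion was 0.0792 without the block and 0.0242 with it. Alternatives were DESeq2 1.42.0, its size factors, no filter, a minimum of 10 counts in each library, only the groups compared, the replicate block, HSPA1A and HSPA1B summed, and leaving out each library. The methods were tested on counts simulated from the real means and spread for D10 against D0. Without the block, 1% of genes with an absolute log2 change of 1 were recovered, and 53% of those with 2. There were 0 false calls among 54 calls. With the block 70% and 99% were recovered, with 10 false calls among 179. A count of 0 without the block therefore says little about log2 changes near 1. Named genes are the 10 chaperones, HSF1, HSF2, at most 3 called genes per further list (or the one with the largest D10 change) and the 5 most alike in pattern, of which 1 is not reported here. The chaperones and lists were chosen with earlier results of these data known. Shared sequence is the share of 50-base words that occur in another gene. Precision is limited by 2 libraries per group.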

Additional observations from a re-analysis of the deposited data

How the results depend on the processing

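Without the block, 0 of the 10 chaperones were called at D4, D7 and D10 under every alternative except the replicate block, which called 2 at D10 (HSPB1 and CRYAB) and changed no other call of the 10 between days. With the block, leaving out 1 library gave 0 to 4 called chaperones at D10, namely 0 without either D0 library, 1 (HSPB1) without either D7 library and 4 without D10 replicate 1 (HSPD1, HSPB1, BAG3 and CRYAB), and at D7 1 (CRYAB) without either D10 library. DESeq2 with the block and the block with DESeq2's size factors both called 2, and these blocked alternatives were chosen after seeing the data. The share of all genes called under the blocked alternatives is not given here. Between experiments, 5 were called and 3 to 7 without 1 library, with 3 left without D0 replicate 1 or D0 replicate 2. CRYAB passed there without a filter (adjusted p = 0.0495 with edgeR).

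Over all genes, 0 were called at D4, with 44 by DESeq2, 21 without a filter and 38 with the block, and 0 at D7, with 112, 93 and 172. At D10, 40 were called, with 379 by DESeq2, 371 without a filter, 20 with at least 10 counts in every library, 0 with only the groups compared, 688 with the block and 0 to 155 without 1 library. Between experiments 4805 were called, and 2121 to 5602 without 1 library.

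Signs turned only when a library was left out, and for values that were not called. At D4 the ranges over these fits were -0.59 to 0.22 for HSPA1A, -0.35 to 0.33 for HSPA1B, -0.13 to 0.41 for HSPA8, -0.15 to 0.48 for DNAJB1, -0.13 to 0.20 for HSPH1, -0.29 to 0.56 for BAG3 and -0.81 to 0.25 for HSPB1. At D7 they were -0.34 to 0.06 for HSPA1B, -0.29 to 0.29 for HSPA8, -0.29 to 0.35 for DNAJB1 and -0.42 to 0.42 for BAG3, and at D10 -0.58 to 0.09 for HSPA8 and -1.05 to 0.03 for BAG3. Of 576 values of the 10 under alternatives, the variants of the blocked fit left out, 541 kept their direction and side of the threshold, 6 lost a call, 6 gained one and 23 changed sign. Among those variants, HSPB1 lost its D10 call without D0 replicate 1 or 2, and CRYAB without either D0 or either D7 library. The cause of these changes was not tested. A group of 2 libraries from which 1 is left out has a lone library, which is assumed to vary like the others.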
